A study of Mus musculus with 2 samples.

Results

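Nuclear receptors are transcription factors that bind DNA through a pair of zinc fingers and, in most members, bind a small fat-soluble ligand through a separate domain. The 39 mouse genes described here were the nuclear receptors on a fixed list of symbols, found by matching each gene identifier, without its version, to the GENCODE symbol, and all 39 were present among the 43346 genes with an Ensembl identifier in the deposited tables. They were measured by total RNA sequencing of the whole stomach of 2 newborn pups (age 0 days) of the mouse strain B6NCrl, 1 library per pup. Both pups came from 1 dam and the labels name no transgene and no treatment and do not record sex; they are called pup 1 and pup 2 after the labels' replicate numbers. Each library was made from 10 ng of RNA longer than 200 nucleotides, and the tables held 51524479 assigned reads for pup 1 and 49983574 for pup 2. There was 1 group, so the comparisons are between genes, and between the libraries of the pups. In whole tissue, fewer cells of a type and less RNA per cell cannot be told apart.

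The members differ in how they are activated and in how they bind DNA. Retinoid X receptors (Rxr genes) pair with a set of partners that includes the peroxisome proliferator-activated, liver X, thyroid hormone, farnesoid X, pregnane X and vitamin D receptors. Steroid receptors wait in complex with heat shock proteins and bind DNA as pairs of the same receptor once hormone arrives, whereas orphan receptors have no established natural ligand and several of them act mainly as repressors. In the gut, receptors of this family are known for sensing dietary fats, bile acids, oxysterols and foreign compounds, and for timing epithelial maturation around birth and weaning.

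In the first zinc finger a short recognition segment, the P-box, reads the bases of the response element. Genes were grouped here by the residues that this segment encodes, not by their DNA target. The coding sequence of 38 members was searched for the segment in the GENCODE M21 transcripts, and 36 held it. Nr0b1 and Nr0b2, which did not hold it, are the family members that lack a DNA-binding domain. The segment is printed for 1 member of each of the 6 groups that encode the same 6 residues in at least 2 genes, on the coding strand, with its 18 bases in capitals and 9 flanking bases on each side in lower case.
Nr1h2 (mm10 chr7:44552091-44552126, minus strand): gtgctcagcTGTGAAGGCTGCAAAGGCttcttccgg
Esrra (chr19:6920076-6920111, minus strand): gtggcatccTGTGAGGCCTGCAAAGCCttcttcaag
Nr2f2 (chr7:70360018-70360053, minus strand): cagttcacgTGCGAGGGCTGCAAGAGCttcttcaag
Esr1 (chr10:4746759-4746794, plus strand): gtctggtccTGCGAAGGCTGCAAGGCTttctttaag
Nr5a2 (chr1:136943417-136944982, minus strand, across an intron): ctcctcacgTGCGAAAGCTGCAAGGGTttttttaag
Nr3c2 (chr8:77085618-77085653, plus strand): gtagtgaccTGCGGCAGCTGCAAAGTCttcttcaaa
The group of Nr1h2 held 22 members, among them the Rxr genes and all 11 of their listed partners, and 17 of the 22 were detected. Detected here means at least 1 TPM (a transcript level corrected for transcript length and library depth) in both pups. The TPM of these 22 genes summed to 209.0 in pup 1 and 222.5 in pup 2. The group of Nr2f2, whose 3 members are the chicken ovalbumin upstream promoter factors, came next among the searched members with 74.05 TPM in pup 1 and 82.23 in pup 2, followed by the 3 estrogen-related receptors with 23.17 TPM in pup 1 and 24.86 in pup 2. The groups of Esr1 and Nr5a2, with 2 members each, had no detected member, and their sums were 0.53 TPM in pup 1 and 0.42 in pup 2 for the estrogen receptors and 0.67 TPM in pup 1 and 0.69 in pup 2 for Nr5a1 with Nr5a2. Nr3c2 with Pgr had 2.18 TPM in pup 1 and 2.56 in pup 2. Nr2e1 and Nr2e3 each had a segment of their own. The 1 member not searched, Nr3c1, had 38.73 TPM in pup 1 and 34.9 in pup 2 and is in none of these sums. Most of the summed RNA of the searched members thus belonged to receptors whose segment is that of Nr1h2. That group also held most of the genes, 22 of the 36 with the segment.

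Of the 39 receptors, 25 were detected in both pups, which is 64.1%, beside 61.2% of the 21474 protein-coding genes with a symbol. Taken alone, pup 1 had 25 receptors at 1 TPM or more, and pup 2 had 27. The median level over all 39 was 3.54 ± 0.177 TPM (SD, n = 2 pups), against 3.57 ± 0.106 TPM over the protein-coding genes. The share detected and the median of the receptors were thus close to those of genes in general. Among genes with a mean of at least 1 TPM the receptors were lower, with a median of 8.24 ± 1.06 TPM against 12.7 ± 0.247 TPM. The 44 Fox genes, a transcription factor family that patterns the gut, had 21 detected members and a median of 0.772 ± 0.0247 TPM. The 39 Hox genes, which set position along the body axis, had 16 detected members and a median of 0.41 ± 0.156 TPM. Reads on the 39 receptors made up 0.0708% of all assigned reads in pup 1 and 0.0746% in pup 2, and the 5 highest receptors held 55.1% in pup 1 and 54.4% in pup 2 of the receptors' summed TPM.

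**Figure D1:**
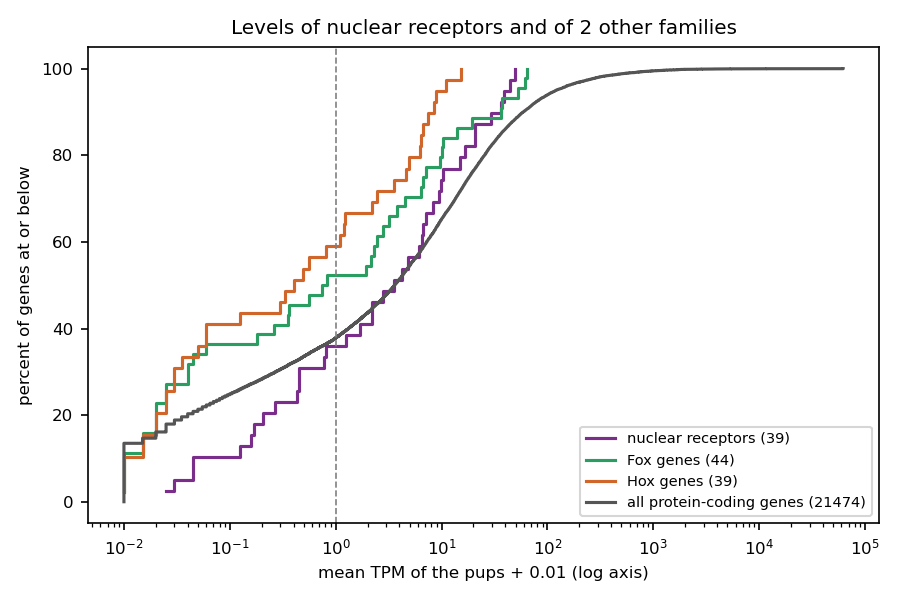
Share of genes (vertical axis, percent) at or below each mean TPM of the pups (horizontal log axis, 0.01 added) for the 39 nuclear receptors, 44 Fox genes, 39 Hox genes and 21474 protein-coding genes; the dashed line marks 1 TPM. The curve of the receptors runs near that of all protein-coding genes at 1 TPM and ends at 49.51 TPM, while the Fox and Hox curves lie above both over the low range.

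The ordered levels ran from 49.51 TPM for Nr1h2 to 0.015 TPM for Nr2e1. Neighbours in this order could rarely be told apart: in 5 of 38 neighbouring pairs the deposited 95% intervals were separate in both pups. These steps fell between Nr2f6 and Pparg, Nr3c1 and Nr2f2, Nr2f2 and Thra, Rxrb and Esrra, and Ppara and Nr1i2. Nr1h2 and Nr2f6 could not be ordered in this way, nor could Pparg and Nr3c1. The intervals cover the error of counting and of assigning reads to transcripts, not the spread between animals.

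**Figure D2:**
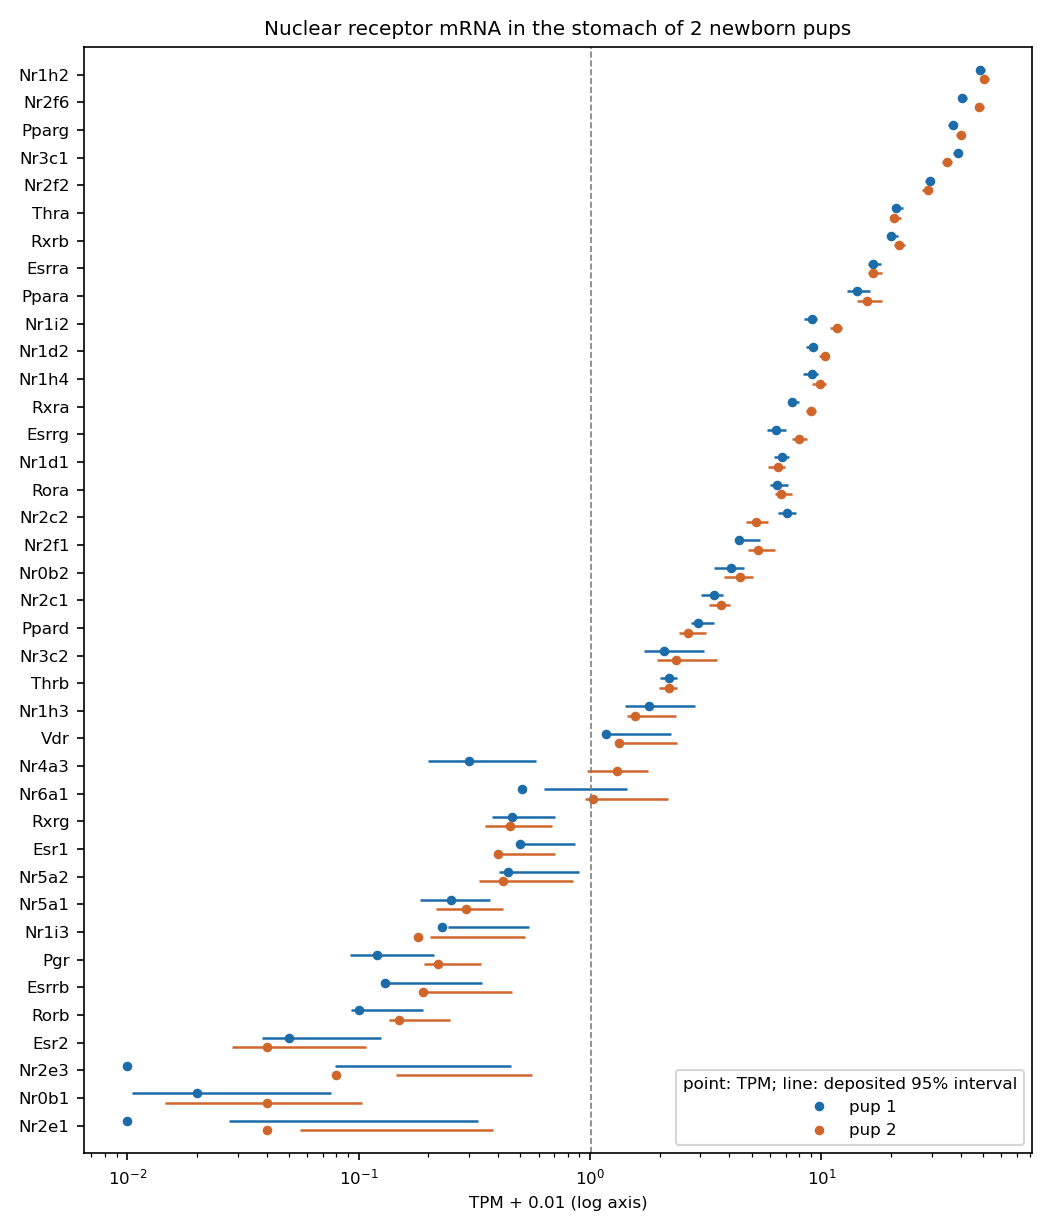
TPM (horizontal log axis, 0.01 added) of each of the 39 receptors in pup 1 and pup 2; points are TPM, lines the deposited 95% intervals, and the dashed line marks 1 TPM. The 25 receptors from Nr1h2 down to Vdr lie above the line in both pups, and points at the low end can lie outside their own interval, since the interval accompanies the posterior mean and not the plotted estimate.

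The retinoid X receptors, the shared partners, were led by Rxrb. Rxrb had 20.06 TPM in pup 1 and 21.58 TPM in pup 2, Rxra had 7.49 TPM in pup 1 and 8.99 in pup 2, and Rxrg, a form best known from muscle and brain, had 0.45 TPM in pup 1 and 0.44 in pup 2 from 36 reads in pup 1 and 32 in pup 2. Rxrb thus carried 71.6% in pup 1 and 69.6% in pup 2 of the summed Rxr level, Rxra 26.8% in pup 1 and 29% in pup 2 of it, and Rxrg 1.61% in pup 1 and 1.42% in pup 2 of it. The 3 genes summed to 29.5 ± 2.13 TPM (SD, n = 2 pups). The 11 genes among the 39 that were classed here as their partners, 10 of which were detected, summed to 152 ± 6.6 TPM. The RNA of these 11 was 5.26 times the Rxr RNA in pup 1 and 5.05 times in pup 2. Partners outside the 39 genes are not in this sum. Nor are Nr2f1, Nr2f2 and Nr2f6, which were classed as pairing with themselves, so the ratio covers only the partners as classed here.

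The fatty acid receptors were all detected and together had 56.4 ± 3.1 TPM. Pparg (chr6:115360951-115490399), the regulator of fat storage and of epithelial differentiation, was the highest, with 37.14 TPM in pup 1 and 40.26 in pup 2. Ppara, which drives fatty acid burning, had 14.2 TPM in pup 1 and 15.75 in pup 2, and the broadly used Ppard had 2.91 TPM in pup 1 and 2.63 in pup 2. The order Pparg, Ppara, Ppard was the same in both pups and no interval of one overlapped that of another. Pparg has 2 annotated coding forms with separate transcript starts, and the starts of their coding sequences are printed. Pparg-201, the form typical of fat cells, opens with 90 extra coding bases (capitals). After these it reads as Pparg-202 does from its own start.
Pparg-201 (chr6:115422111-115439868, plus strand, across an intron): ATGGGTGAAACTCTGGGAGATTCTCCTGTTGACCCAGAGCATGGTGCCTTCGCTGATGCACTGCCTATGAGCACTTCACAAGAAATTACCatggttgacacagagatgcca
Pparg-202 (chr6:115439848-115439868, plus strand): atggttgacacagagatgcca
Pparg-202 held 100% of the gene's TPM in pup 1 and 92.33% in pup 2. Pparg-201 was listed at 0 TPM in pup 1 and at 3.09 TPM, from 205.06 estimated reads, in pup 2, and its deposited intervals, which ended at 2.54 TPM in pup 1 and began at 0.946 TPM in pup 2, overlapped. The shorter form dominated in both pups. Most genes on the list of 5 fat cell genes were at or near 0. Adipoq had 0 TPM in pup 1 and 0.02 in pup 2, and Plin1 had 0.01 TPM in each pup. Lep had 0 TPM in pup 1 and 0.01 in pup 2, and Ucp1 had 0.03 TPM in each pup. Cidea, the fifth gene of that list, had 6.68 TPM in pup 1 and 6.62 in pup 2. Fabp4, also known from fat cells but kept on the PPAR target list, had 197.54 TPM in pup 1 and 164.39 in pup 2.

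The bases before the RefSeq start sites of Pparg differ in composition. RefSeq (GRCm38.p6, the same assembly as mm10) gives 3 start sites for Pparg, and the 250 bases before the first and the last are printed, on the plus strand, with matches on either strand to the receptor half-site (AGGTCA) and to the GC box (GGGCGG) in capitals.
First start (chr6:115360894-115361143): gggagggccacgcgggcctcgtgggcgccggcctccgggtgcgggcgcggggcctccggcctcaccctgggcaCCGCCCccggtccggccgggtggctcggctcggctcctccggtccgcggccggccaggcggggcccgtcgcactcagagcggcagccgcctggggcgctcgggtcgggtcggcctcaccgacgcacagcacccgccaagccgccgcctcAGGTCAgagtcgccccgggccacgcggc
Last start (chr6:115421816-115422065): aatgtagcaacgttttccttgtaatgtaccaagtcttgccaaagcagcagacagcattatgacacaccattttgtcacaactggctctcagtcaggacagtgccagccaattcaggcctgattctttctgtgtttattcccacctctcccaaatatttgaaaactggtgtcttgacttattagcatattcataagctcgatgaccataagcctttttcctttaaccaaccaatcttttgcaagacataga
The first window is 82.4% G and C and includes the start that GENCODE gives for Pparg-202, at base 115360951. Most of this window, with both of its marked matches, lies after that GENCODE start. The last window, which ends directly before the annotated start of Pparg-201, is 40.8% G and C. It holds no half-site, GC box or TATA box (TATAAA) on either strand. The middle window, not printed, is 63.6% G and C and holds the half-site, the GC box and the TATA box. Its start also lies before the coding start of Pparg-202, so that form does not tell the first start from the middle one. Over the 52 RefSeq promoters of the 36 receptors with an entry, 10 held the half-site on either strand (19.2%), 21 held the GC box (40.4%) and 7 held the TATA box (13.5%). Over all 32851 promoters of the same length the shares were 16.3%, 35.7% and 13.6%. The letters searched were therefore about as common before receptor genes as before genes in general.

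Of the oxysterol receptors, which sense cholesterol derivatives, Nr1h2 (LXR beta, chr7:44549616-44553951) had the highest level of all 39 receptors by mean, 48.47 TPM in pup 1 and 50.55 TPM in pup 2. Nr1h3 (LXR alpha), the form known from liver and macrophages, had 1.79 TPM in pup 1 and 1.55 in pup 2 from 99 reads in pup 1 and 105 in pup 2. The intervals of the paralogs were far apart in both pups.

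The thyroid hormone receptors were led by Thra (chr11:98740638-98769006), with 21.06 TPM in pup 1 and 20.63 in pup 2, while Thrb had 2.18 TPM in pup 1 and 2.19 in pup 2. Thra makes a hormone-binding form, Thra-202, and a longer form, Thra-201, whose different end does not bind hormone in the known mouse and human proteins. The coding sequences part as shown, where capitals mark the bases after the last shared one.
Thra-201 (chr11:98764383-98768193, plus strand, across an intron): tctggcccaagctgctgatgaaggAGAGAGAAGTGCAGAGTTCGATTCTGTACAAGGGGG
Thra-202 (chr11:98764383-98764442, plus strand): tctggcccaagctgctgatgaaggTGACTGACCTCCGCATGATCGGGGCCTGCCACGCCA
Thra-201 encodes 492 codons and Thra-202 encodes 410. Thra-201 had 13.92 TPM in pup 1 and 13.99 in pup 2, which was 66.1% in pup 1 and 67.8% in pup 2 of the gene, and Thra-202 had 5.29 TPM in pup 1 and 4.73 in pup 2, which was 25.13% in pup 1 and 22.94% in pup 2. The intervals of these forms did not overlap in either pup, so the form with the longer, non-binding end was the more abundant in both. The end of Thra-201 lies opposite exons of Nr1d1 over 263 bases, Thra-202 has no such overlap, and no source used here says whether reads were assigned by strand.

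Nr1h4, the bile acid receptor (FXR, chr10:89454234-89533585), had 9.07 TPM in pup 1 and 9.87 in pup 2. Its forms Nr1h4-202 and Nr1h4-201 differ by 12 bases beside the DNA-binding domain, shown in capitals.
Nr1h4-202 (chr10:89480602-89483405, minus strand, across an intron): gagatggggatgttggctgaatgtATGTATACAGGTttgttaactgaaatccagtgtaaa
Nr1h4-201 (the same span): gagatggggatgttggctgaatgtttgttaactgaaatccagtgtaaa
The form with the insert, Nr1h4-202, held 12.54% in pup 1 and 9.55% in pup 2 of the gene's TPM, and the form without it, Nr1h4-201, held 83.12% in pup 1 and 81.77% in pup 2. A further coding form, Nr1h4-203, with 474 codons, held 4.34% in pup 1 and 8.68% in pup 2. Nr0b2 (SHP), the DNA-binding-deficient repressor that FXR induces in liver, had 4.05 TPM in pup 1 and 4.46 in pup 2 from 173 reads in pup 1 and 183 in pup 2. Nr1i2, the foreign compound sensor PXR, had 9.09 TPM in pup 1 and 11.71 TPM in pup 2, whereas its relative Nr1i3 (CAR) had 0.22 TPM in pup 1 and 0.17 in pup 2. Exons of Nr1i3 overlap those of Tomm40l, with 16.39 TPM in pup 1 and 17.29 in pup 2, over 3304 bases on the opposite strand, so the low Nr1i3 value is uncertain. Vdr, the vitamin D receptor, was the lowest detected receptor, with 1.16 TPM in pup 1 and 1.32 in pup 2 from 188 reads in pup 1 and 224 in pup 2.

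The steroid receptors were carried by 1 gene. Nr3c1, the glucocorticoid receptor, had 38.73 TPM in pup 1 and 34.9 TPM in pup 2, out of 39.7 ± 2.52 TPM for the 5 steroid receptors on the list. Nr3c2, the mineralocorticoid receptor, had 2.07 TPM in pup 1 and 2.35 in pup 2. The sex steroid receptors among the 39 were below 1 TPM: Esr1 had 107 reads in pup 1 and 85 in pup 2 and 0.49 TPM in pup 1 and 0.39 in pup 2, Pgr had 21 reads in pup 1 and 51 in pup 2, and Esr2 had 5 in pup 1 and 3 in pup 2. Receptor RNA for glucocorticoid thus stood near the top of the order, and that of Esr1, Pgr and Esr2 in its lower part. The enzymes that set local glucocorticoid, Hsd11b1 and Hsd11b2, were both detected, with 2.56 TPM in pup 1 and 2.44 in pup 2 for the activating Hsd11b1 and 2.4 TPM in pup 1 and 2.13 in pup 2 for the inactivating Hsd11b2.

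Among the orphan receptors the COUP factors Nr2f6 and Nr2f2 were the highest. The other COUP factor, Nr2f1, was lower. Nr2f6 had 40.33 TPM in pup 1 and 48.18 in pup 2, Nr2f2 (COUP-TFII, chr7:70351944-70366735), a regulator of mesenchyme and veins that is needed for stomach patterning in mice, had 29.33 TPM in pup 1 and 28.75 in pup 2, and Nr2f1 (COUP-TFI) had 4.39 TPM in pup 1 and 5.3 in pup 2. Exons of Nr2f6 overlap those of Ocel1 over 1622 bases on the opposite strand, and those of Nr2f2 overlap B130024G19Rik over 643 bases. Ocel1 had 7 TPM in pup 1 and 7.76 in pup 2 and B130024G19Rik had 4.3 TPM in pup 1 and 4.23 in pup 2, both below their receptor. The testicular receptors Nr2c2 and Nr2c1 repress direct repeat elements. Nr2c2 had 7.07 TPM in pup 1 and 5.19 in pup 2, and Nr2c1 had 3.41 TPM in pup 1 and 3.66 in pup 2. Nr2c2 shares 4590 exonic bases with Mrps25 on the opposite strand, and Mrps25 had 45.41 TPM in pup 1 and 40.75 in pup 2.

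The estrogen-related receptors, which bind no estrogen and regulate mitochondrial genes, had 2 detected members. Esrra (chr19:6910977-6921813) had 16.69 TPM in each pup, Esrrg had 6.36 TPM in pup 1 and 7.99 in pup 2, and Esrrb, known from pluripotent cells, had 20 reads in pup 1 and 30 in pup 2. The clock receptors Nr1d2 and Nr1d1, repressors within the circadian loop, were both detected: Nr1d2 had 9.18 TPM in pup 1 and 10.38 in pup 2, and Nr1d1 had 6.76 TPM in pup 1 and 6.46 in pup 2. Rora, the activator that competes with them for the same element, had 6.39 TPM in pup 1 and 6.71 in pup 2, and Rorb, known from brain and retina, had 34 reads in pup 1 and 48 in pup 2. Per1, a clock gene outside the list of 39, had 10.69 TPM in pup 1 and 6.38 TPM in pup 2 and was the single one of 12 clock partners called different between the pups by the rule given below; that list was led by Tef, Cry1 and Cry2, with means of 16.43, 14.13 and 13.71 TPM, and all 12 were detected.

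The low end held 14 receptors with a mean below 1 TPM, 4 of them below 0.1 TPM. Besides those already given they were Nr4a3 (31 reads in pup 1 and 133 in pup 2), Nr6a1, the germ cell factor (115 in pup 1 and 109 in pup 2), Nr5a2, the liver and pancreas factor LRH-1 (55 in pup 1 and 44 in pup 2), Nr5a1, the steroidogenic factor of adrenal and gonad (28 in pup 1 and 31 in pup 2), Nr2e3, the photoreceptor factor (0 in pup 1 and 6 in pup 2), Nr2e1, the neural stem cell factor (0 in pup 1 and 4 in pup 2), and Nr0b1, the adrenal repressor DAX1 (1 in pup 1 and 2 in pup 2). With 0 reads seen, the floor used was 3 reads, which is 0.0582 CPM (reads scaled to the library total) in pup 1, and 4 receptors were at or under 3 reads in at least 1 pup. For Nr2e1 and Nr2e3, with 0 reads in pup 1, no level could therefore be told from 0 in that pup at this depth. Esr2 and Nr0b1 had a few reads in both pups, so their levels are uncertain. Nr6a1 had 0.5 TPM in pup 1 and 1.02 in pup 2 although its reads were 115 in pup 1 and 109 in pup 2, as its long transcript Nr6a1-202 held 87.19% in pup 1 and 29.68% in pup 2 of the TPM and shorter models held the rest. Of these 14, 8 had more reads in pup 2 and 6 in pup 1. Genes for odorant, taste and vomeronasal receptors, 1496 in all, had 201 reads in pup 1 and 518.6 in pup 2, spread over 50 genes in pup 1 and 292 in pup 2. The part of such scattered reads in the lowest receptor values was not tested.

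The pups were close for most receptors. A gene was called different when its deposited intervals were apart, one TPM was at least 1.5 times the other and its estimated counts averaged at least 100, which compares 2 libraries and gives no p-value. None of the 26 receptors with that many reads was called, and 1.63% of all 13891 genes with that many reads were. With no limit on the fold, a rule added after the values were seen, the intervals were apart for 8 of the 26 receptors, beside 21.2% of the 13891 genes. Nr3c1 and Nr2c2 were higher in pup 1, as were 8.33% of all genes. Nr2f6, Pparg, Nr1i2, Nr1d2, Rxra and Esrrg were higher in pup 2, as were 12.8% of all genes. The widest of these gaps were those of Nr2c2, 1.36 times higher in pup 1, and Nr1i2, 1.29 times higher in pup 2, and the narrowest was that of Pparg, 1.08 times higher in pup 2. The median log2 ratio of pup 1 over pup 2, with 1 TPM added to each, was -0.10 over the 25 receptors with a mean of at least 1 TPM. Of these 25, 7 were higher in pup 1, 17 were higher in pup 2, and 1 was equal. The same median was -0.03 over 13339 protein-coding genes, of which 58.4% were higher in pup 2.

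Nr4a3 stood apart from the other receptors, at 0.29 TPM in pup 1 and 1.3 TPM in pup 2, 4.48 times higher in pup 2. It missed the call since its mean count was below 100, and passed when a mean count of 10 was asked for, as did 2.01% of 18333 genes. Nr4a3 is an orphan receptor whose gene is switched on within minutes of many stimuli. Its relatives Nr4a1 and Nr4a2, which are not among the 39, were both called higher in pup 2: Nr4a1 had 7.7 TPM in pup 1 and 14.47 in pup 2, and Nr4a2 had 5.48 TPM in pup 1 and 12.08 in pup 2. All 3 genes of this subfamily were therefore lower in pup 1. At transcript level, 62.68% in pup 1 and 61.66% in pup 2 of the Nr4a3 TPM lay on Nr4a3-204, a short model annotated as noncoding. By reads this model was the smaller part, with 5.96 of 31 reads in pup 1 and 25.39 of 133 in pup 2. The long coding Nr4a3-201 had 25.04 reads in pup 1 and 77.96 in pup 2.

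**Figure D3:**
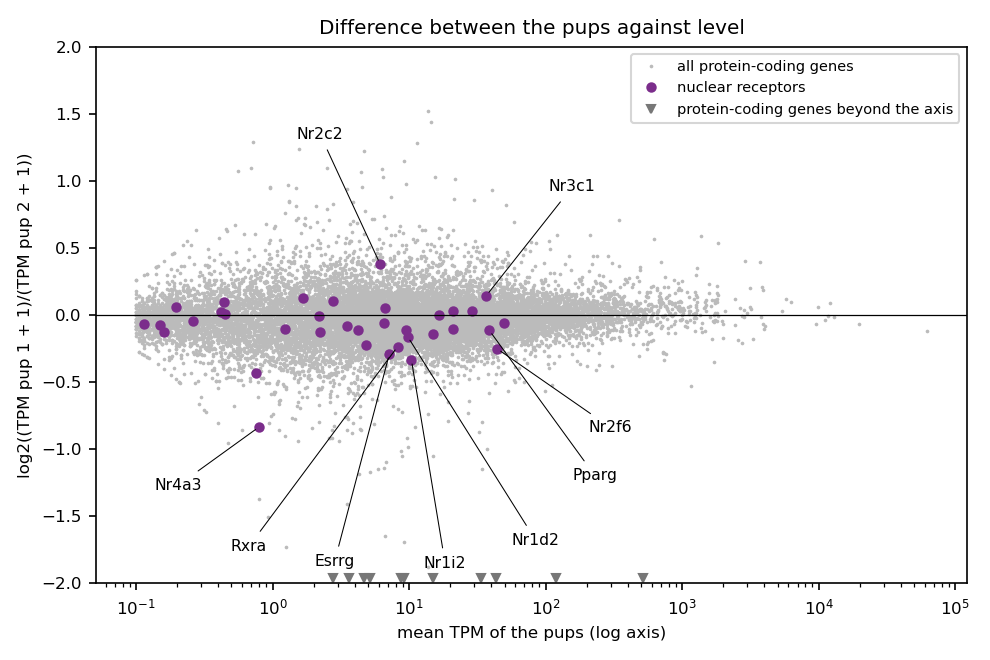
Log2 ratio of TPM + 1 in pup 1 over pup 2 (vertical axis) against the mean TPM of the pups (horizontal log axis) for genes with a mean of at least 0.1 TPM; grey points are protein-coding genes, purple points receptors, and triangles 11 protein-coding genes beyond the axis. Named are the 8 receptors whose deposited intervals were apart and Nr4a3, which lies lowest of the receptors.

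Tissue markers that moved with the pups are given beside these differences. Of 7 liver genes, all were higher in pup 2, with 6 called (Ahsg, Afp, Apoa2, Alb, Serpina1a and Fgb), with a summed level of 150.7 TPM in pup 1 and 238.3 TPM in pup 2, and none was at 0. Afp, the fetal serum protein, had 20.76 TPM in pup 1 and 47.15 in pup 2. Of 6 receptors known from liver, picked here without a preset list, Nr1i2, Nr1h4 and Nr0b2 had ratios of pup 2 over pup 1 of 1.29, 1.09 and 1.10. Nr5a2, Nr1h3 and Nr1i3 had ratios of 0.95, 0.87 and 0.77. The intervals of the pups were apart for Nr1i2 alone of these 6. Of 5 intestine genes, all were higher in pup 1 and Alpi (9.83 TPM in pup 1 and 4.89 in pup 2) and Lct (2.36 TPM in pup 1 and 1.11 in pup 2) were called, with sums of 41.69 TPM in pup 1 and 31.17 in pup 2, while Cdx2, the defining intestinal factor, had 0.06 TPM in pup 1 and 0.05 in pup 2. Smooth muscle genes summed to 6833 TPM in pup 1 and 5557 in pup 2, with all 3 higher in pup 1 and none called. The part of liver, intestine or muscle in the receptor differences was not tested. Nr5a1 and Nr0b1 mark adrenal cortex, whose list of 5 was led by Star (8.29 TPM in pup 1 and 6.78 in pup 2), with its other 4 genes below 1 TPM in both pups. The other lists had no gene called, and their sums were 1237 TPM in pup 1 and 1180 in pup 2 for fibroblast, 30.41 in pup 1 and 29.83 in pup 2 for endothelium, 69.44 in pup 1 and 70.07 in pup 2 for enteric neuron, 47.06 in pup 1 and 44.61 in pup 2 for pancreas, 64.43 in pup 1 and 69.77 in pup 2 for skeletal muscle and 71.35 in pup 1 and 69.98 in pup 2 for immune genes. The stomach label was matched by the markers: Tff1 had 12874 TPM in pup 1 and 13022 in pup 2, Gkn1 2884.1 TPM in pup 1 and 2808.8 in pup 2 and Pgc 1415 TPM in pup 1 and 1532.3 in pup 2, and the squamous gene Krtdap of the forestomach had 10904 TPM in pup 1 and 11163 in pup 2.

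The same transcript was the main one in both pups for 22 of the 25 detected receptors, and for 13 it reached 80% of the gene's TPM in pup 1 and in pup 2. Over the 25, the main transcript's share had a median of 83.1% in pup 1 and 86.5% in pup 2. Nr1i2 and Nr0b2 have 1 annotated transcript each. Rxra-201 (99.64% in pup 1 and 100% in pup 2), Nr2f6-201 (97.23% in pup 1 and 96.08% in pup 2) and Thrb-203 (97.49% in pup 1 and 90.1% in pup 2) were among the receptors read almost wholly from 1 transcript.

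For 12 receptors the main transcript was under 80% in at least 1 pup. Rxrb was split between Rxrb-202 (46.18% in pup 1 and 46.49% in pup 2) and Rxrb-201 (42.22% in pup 1 and 43.32% in pup 2), and Nr2f2 between Nr2f2-201 (76.61% in pup 1 and 75.98% in pup 2) and the short Nr2f2-202 (23.39% in pup 1 and 24.02% in pup 2). Both splits were nearly the same in the pups. Rora-202 held 80.57% in pup 1 and 75.09% in pup 2 and Rora-201, which starts at an upstream promoter, 12.26% in pup 1 and 14.53% in pup 2. Nr2f1-201 held 82.44% in pup 1 and 71.76% in pup 2, Nr2c1-203 held 56.07% in pup 1 and 73.22% in pup 2, and Ppara-201 held 54.58% in pup 1 and 52.03% in pup 2. The coding starts of the Rora forms are shown from the last bases of the part that they do not share (capitals) into the shared part.
Rora-202 (chr9:69290021-69348149, plus strand, across an intron): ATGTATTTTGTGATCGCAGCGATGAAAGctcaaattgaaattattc
Rora-201 (chr9:68653943-69348149, plus strand, across introns): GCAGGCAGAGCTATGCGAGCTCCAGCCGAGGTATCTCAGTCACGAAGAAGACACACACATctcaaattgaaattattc

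**Figure D4:**
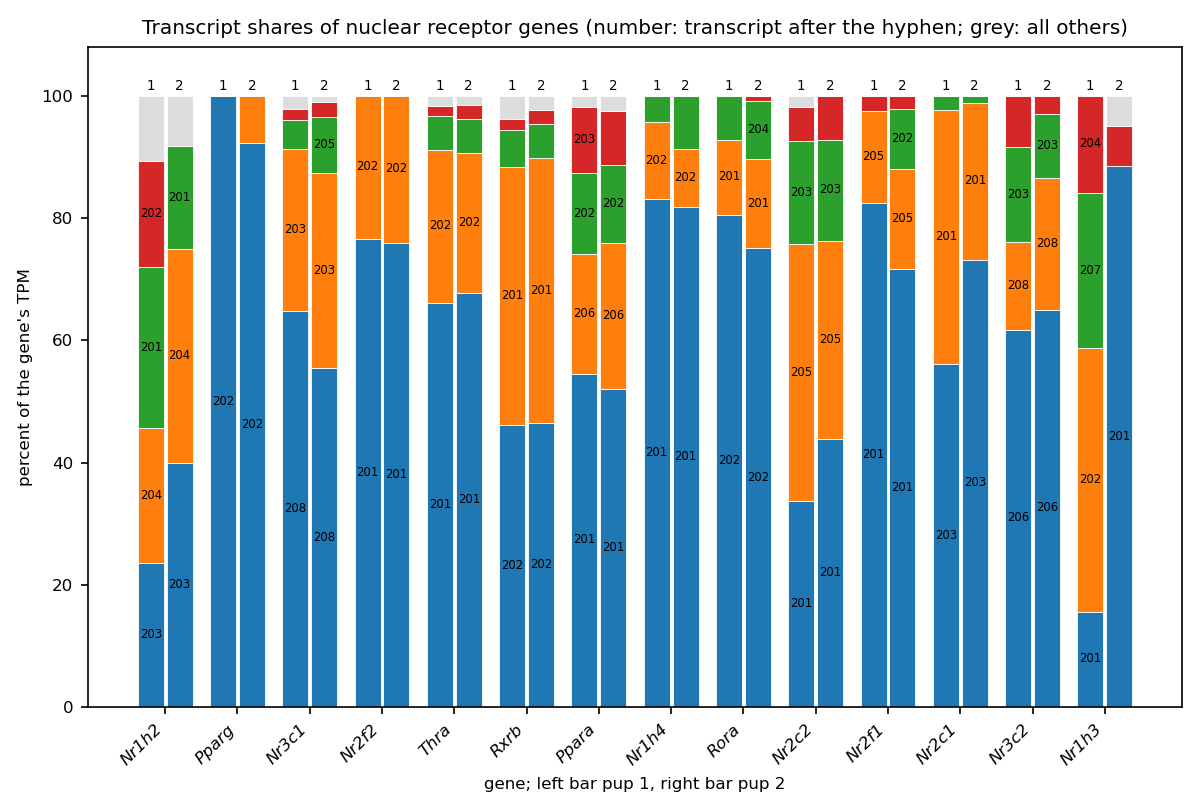
Percent of each gene's TPM (vertical axis) on its transcripts for 14 receptors, with the left bar pup 1 and the right bar pup 2; the 4 highest transcripts are coloured, with their numbers where there is room, and grey is the rest. Thra, Rxrb and Nr2f2 look alike in the pups, while Nr1h2 and Nr1h3 change their main transcript.

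For 3 receptors the main transcript by TPM differed between the pups. Nr1h2 had Nr1h2-201 in pup 1 (26.24%, against 16.76% in pup 2) and Nr1h2-203 in pup 2 (39.99%, against 23.51% in pup 1), and the intervals of each overlapped between the pups. A further coding form, Nr1h2-202, had 8.42 TPM in pup 1 and 0 in pup 2. Its intervals were narrowly apart, beginning at 4.93 TPM in pup 1 and ending at 4.91 TPM in pup 2. Nr1h3 had Nr1h3-202 in pup 1 (43.12%, 52.3 reads) and Nr1h3-201 in pup 2 (88.53%, 92.96 reads). The intervals of each of these Nr1h3 forms overlapped between the pups, and both encode 445 codons. Nr2c2 had Nr2c2-205, a model annotated as a target of nonsense-mediated decay, in pup 1 (41.91%, against 32.39% in pup 2) and the coding Nr2c2-201 in pup 2 (43.89%, against 33.79% in pup 1). Nr2c2-205 had 2.96 TPM in pup 1 and 1.68 TPM in pup 2 with intervals apart, whereas Nr2c2-201 had 2.39 TPM in pup 1 and 2.28 in pup 2. By reads, Nr2c2-201 was the main transcript in both pups, with 64% in pup 1 and 73.4% in pup 2, against 28.5% in pup 1 and 19.5% in pup 2 for Nr2c2-205. The difference in TPM between the pups in Nr2c2 thus lay on the decay-annotated transcript more than on the long coding one.

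Since TPM divides by length, short models weigh more in a gene's TPM than in its reads. Nr3c2-206, a model of 612 bases, held 61.77% in pup 1 and 65.05% in pup 2 of the Nr3c2 TPM but 15% in pup 1 and 19% in pup 2 of its reads. Nr3c1-208, a model of 1891 bases, held 64.87% in pup 1 and 55.48% in pup 2 of the Nr3c1 TPM, whereas 57.7% in pup 1 and 65.2% in pup 2 of the reads lay on Nr3c1-203 with 6436 bases. Ppara-206, 367 bases long and noncoding, held 19.54% in pup 1 and 23.91% in pup 2 of the TPM and 2.86% in pup 1 and 3.71% in pup 2 of the reads. The long Rora-201, with 10878 bases, held a larger share of the Rora reads than of its TPM, with 38.6% of the reads in pup 1 and 43.9% in pup 2. The TPM of these receptors is to that extent a property of the transcript models.

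RNA of further nuclear receptors and of the proteins that receptors work with was mostly detected. Of 10 further nuclear receptors, 8 were detected, led by Rarg (23.21 TPM in pup 1 and 29.61 in pup 2), Hnf4a (20.65 TPM in pup 1 and 23.6 in pup 2) and Rara (17.21 TPM in pup 1 and 22.17 in pup 2). All 13 coactivators were detected, led by Med1 (23 TPM in pup 1 and 21.87 in pup 2), Crebbp (11.65 TPM in pup 1 and 12.08 in pup 2) and Carm1 (9.86 TPM in pup 1 and 12.94 in pup 2). All 11 corepressors were detected as well, led by Ncor1 (70.13 TPM in pup 1 and 72.33 in pup 2), Hdac3 (47.46 TPM in pup 1 and 49.61 in pup 2) and Gps2 (34.77 TPM in pup 1 and 37.12 in pup 2). None of these cofactors was called different between the pups. The 10 chaperones that hold steroid receptors had a median of 191 ± 3.08 TPM, led by Hspa8, Hsp90ab1 and Ptges3 with means of 893, 611 and 263.1 TPM, and their lowest member was Fkbp5 (9.71 TPM in pup 1 and 7.62 in pup 2), itself a glucocorticoid target.

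**Figure D5:**
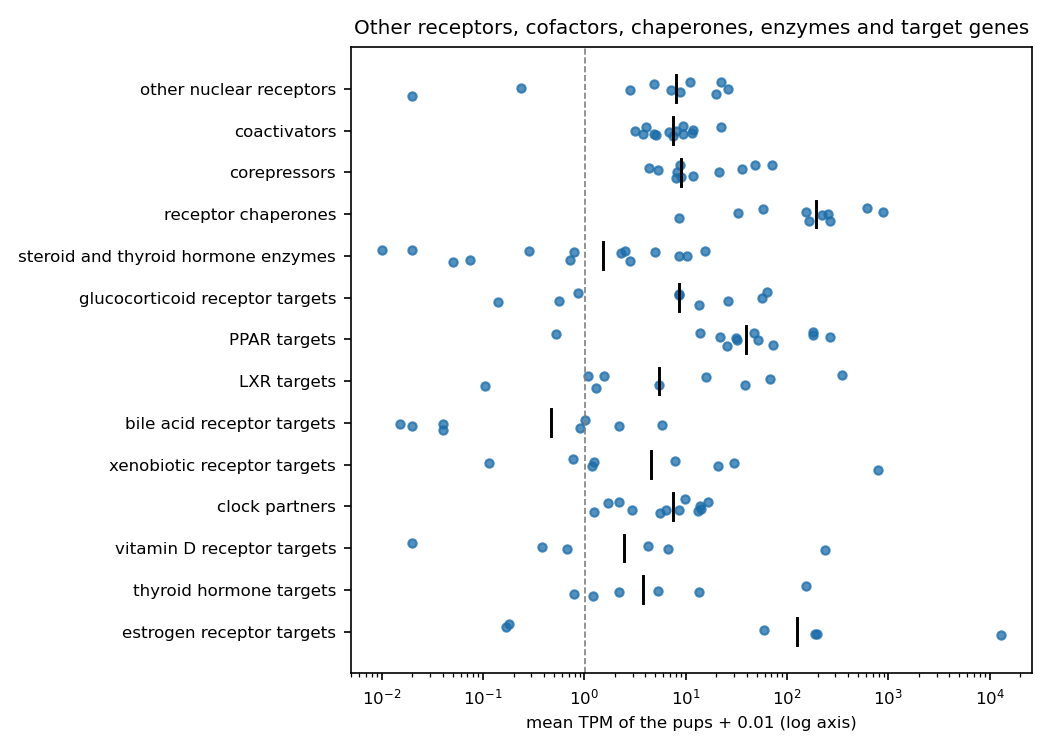
Mean TPM of the pups (horizontal log axis, 0.01 added) of each gene in 14 lists related to nuclear receptors; black bars are list medians and the dashed line marks 1 TPM. All cofactors, chaperones and clock partners lie above the line, while most bile acid receptor targets lie below it.

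Genes known as targets of these receptors in other tissues differed widely in level, and a level alone does not show which factor set it. PPAR targets had the second highest median among the target lists, 40.2 ± 4.03 TPM with 11 of 12 detected, among them the fatty acid carrier Fabp4 (197.54 TPM in pup 1 and 164.39 in pup 2), and Acadm (72.42 TPM in pup 1 and 74.46 in pup 2) and Cpt1a (52.52 TPM in pup 1 and 50.76 in pup 2) of fatty acid oxidation. Of 12 genes 2 were higher in pup 2 and none was called. The estrogen receptor list had the highest median, 125 ± 7.71 TPM, with Tff1, Igfbp4 and Xbp1 at its head and means of 12948, 199.7 and 190.3 TPM. Tff1 is also an abundant product of stomach pit cells. The other genes of that list were Ltf, Greb1 and Pgr. Ltf had 49.04 TPM in pup 1 and 69.05 in pup 2. Greb1 and Pgr were lower, with 0.2 TPM in pup 1 and 0.14 in pup 2 for Greb1, and 0.11 TPM in pup 1 and 0.21 in pup 2 for Pgr. Glucocorticoid targets were led by Tsc22d3 (66.41 TPM in pup 1 and 59.85 in pup 2), Sgk1 (51.43 TPM in pup 1 and 62.65 in pup 2) and Dusp1 (23.81 TPM in pup 1 and 28.45 in pup 2), with 6 of 9 detected, and Per1 was the single one called. LXR targets, with 7 of 9 detected, were led by Apoe (328.74 TPM in pup 1 and 374.42 in pup 2), Lpcat3 (68.1 TPM on average) and Srebf1 (38.65 TPM).

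Targets of the bile acid receptor were mostly low, while those of the vitamin D receptor differed widely in level. Of 8 bile acid targets, 2 were detected, Fabp6 at 5.09 TPM in pup 1 and 6.56 in pup 2 and Slc51a at 2.37 TPM in pup 1 and 1.98 in pup 2. Abcb11, the bile salt pump, followed with 0.83 TPM in pup 1 and 1.2 in pup 2, and Fgf15, the ileal hormone induced by FXR, had 1 read in pup 1 and 0 in pup 2. Cyp24a1, the vitamin D breakdown enzyme, had 2 reads in each pup, whereas S100g, a calcium-binding protein that vitamin D induces in intestine, had 273.41 TPM in pup 1 and 201.32 in pup 2, followed on its list of 6, of which 3 were detected, by Trpv6 (mean 6.66 TPM) and Pthlh (mean 4.22 TPM). Foreign compound genes were led by Gstm1 (765.26 TPM in pup 1 and 816.13 in pup 2), Cyp3a13 (29.6 TPM in pup 1 and 29.83 in pup 2) and Ugt1a1 (21.22 TPM in pup 1 and 20.19 in pup 2), and Cyp3a11, a liver enzyme that PXR induces, was called higher in pup 2 at 0.56 TPM in pup 1 and 1.92 TPM in pup 2. Thyroid hormone targets were led by Me1, Klf9 and Hr, with means of 153.9, 13.54 and 5.345 TPM and 5 of 6 detected. Among the hormone enzymes 7 of 14 were detected, led by Srd5a1 (15.37 TPM in pup 1 and 15.33 in pup 2), H6pd (mean 10.32 TPM) and Cyp27a1 (mean 8.63 TPM), while the aromatase gene Cyp19a1 was the one gene with no read in either pup.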

How the data were processed

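Gene and transcript tables of 2 libraries of 1 group, 1 per pup, were used as the authors deposited them. The authors' tables hold expected counts, TPM and FPKM, each with a posterior mean, bounds of an interval for TPM and FPKM and, for transcripts, the percent of the gene's TPM, per the file headers; all were estimated by the authors from reads aligned to the transcriptome. FPKM was not used. The signal values used here, expected counts and TPM, were estimated by the authors before deposit, with TPM normalised for transcript length and library depth. The deposited upper bound of TPM, whose sum over features exceeds the TPM total, was used only as the upper end of the interval and not as a signal value. Per the deposited notes reads were placed on mm10 with GENCODE M4; no source used here names the aligner, the quantifier, their versions or the use of strand. The interval level is not stated either: for Nr1i2 and Nr0b2, which have 1 transcript, the half-width was 1.95 to 1.96 counting SDs, so it was read as 95%. It comes with the posterior mean, and 12 of 78 receptor TPM values, in 7 receptors, lie outside it.

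Symbols, positions and transcript sequences came from GENCODE M21 and promoters from RefSeq, both on the mm10 assembly, so a transcript's length can differ between releases. The 39 members, the related lists (134 gene entries) and the marker lists (52 entries) were chosen with earlier results of these data known. All receptors are accounted for: those with a mean of at least 1 TPM get their value in each pup, and of each related list the 3 highest and any called are named, apart from a few genes that are not reported here, for which Acadm and Cpt1a stand in the PPAR list, marker lists with no called gene are given by sums in place of names; outside the rule stand Hsd11b1, Hsd11b2, Greb1, Pgr, Ltf, Fkbp5, Fgf15, Cyp24a1, Cyp19a1 and the fat cell, stomach and adrenal genes, which were named after their values were seen. Expected counts were rounded and scaled with edgeR 4.0.16 (TMM) or DESeq2 1.42.0 (R 4.3.3) for alternatives only; no model was fitted and no p-value computed. The calling rule was tried on simulated Poisson counts at equal depth, with Poisson intervals in place of the deposited ones and planted changes above the fold limit. Such counts cannot test the deposited intervals, changes near the limit or the spread between animals. A count of 0 is given with a floor of 3 counts; floors and intervals cover counting error only. Python 3.11.15, pandas 2.3.3, numpy 2.4.6, scipy 1.17.1 and matplotlib 3.10.9 were used. The 97 spike-in controls and unnamed features were left out of gene counts. Exonic overlap with other genes is given where it exceeds 250 bases; 5 receptors had estimated counts that were not whole.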

Additional observations from a re-analysis of the deposited data

How the results depend on the processing

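No paired analysis was possible because there was 1 group. The count of detected receptors (25) was 34 at 0.1 TPM, 17 at 5 TPM, 25 with the posterior mean TPM, and 25 to 27 when either pup was left out. The median level of 3.54 TPM became 8.24 TPM when receptors with a mean below 1 TPM were left out, by construction, and lay between 3.41 and 3.66 TPM under the other alternatives. The count of receptors called different between the pups (0) was 3 at the lower fold limit tried, 1 at a mean count of 10 and 8 with no fold limit, and stayed at 0 at a fold of 2, at a mean count of 1000 and with Poisson intervals on counts scaled by TMM or DESeq2. The median log2 ratio stayed between -0.11 and -0.06, and the summed Rxr level between 28 and 31.01 TPM. The main transcript was the same in both pups for 22 of 25 receptors with either estimate of share, and for 15 of 17 at 5 TPM. With the posterior mean, 15 of 39 single receptor levels moved by more than the SD of the pups, and 7, none of them detected, by over 1.5 times. Depth limits the receptors below 1 TPM, and 2 libraries limit every SD.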
